A study of Mus musculus with 2 samples.

Results

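The genes described here are the neural cadherins and adhesion molecules measured on mouse hippocampus arrays. They were chosen by gene symbol: every gene whose symbol begins with Pcdh, Cdh and a number, Cntn and a number, Nrxn, Nlgn or Ncam, together with Chl1, L1cam and Nfasc, leaving out Cdh5 and Cdh24. The rule used no measured value. It found 71 genes, on 72 of the 23473 probes, among 16446 genes named by the platform annotation. Of the 71 genes, 62 were above background in both dye channels of both arrays, as were 13630 genes in all, and every ratio below is over these.

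The RNA came from 3 kinds of mouse hippocampus. AtrxdE2+TMPyP4 mice carry the AtrxdE2 allele of Atrx, which encodes a chromatin remodeller, and received the porphyrin TMPyP4, a ligand of G-quadruplex DNA, at 30 mg/kg by intraperitoneal injection 2 times a week from postnatal day 30 to day 90. AtrxdE2 mice carry the same allele without the drug, and wild type mice carry neither. Each group was a pool of 5 mice. There were 2 arrays, and each set 1 mutant pool, labelled with Cy3, against wild type RNA, labelled with Cy5. The labels do not state a vehicle injection, the age at dissection, the sex, or whether both arrays carried the same wild type RNA. With 1 array per mutant pool there is no replicate and therefore no test: all values are ratios of 1 pool to another, and their spread between mice is unknown. Because the dyes were not swapped, dye and genotype cannot be told apart in either ratio over wild type, while the difference between the arrays compares Cy3 with Cy3.

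Classical cadherins are calcium-dependent adhesion receptors that bind like molecules on the facing cell and are tied to actin through catenins. Protocadherins, many of them encoded in gene clusters, give neurons combinations of surface molecules used in self-recognition, while neurexins and neuroligins pair across the synapse. The immunoglobulin-domain molecules of the NCAM, L1 and contactin families act in axon growth, bundling and the organisation of axonal domains.

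As a set, the adhesion genes had ratios centred close to those of all genes, and a small number of members stood apart. The median log2 ratio of AtrxdE2+TMPyP4 over wild type was 0.032 over the 62 adhesion genes, against 0.010 over all measured genes, with 35 of the 62 above 0. Without the drug, in AtrxdE2 over wild type, the median was 0.035, against -0.003 over all genes, with 37 of the 62 above 0. The difference between the ratios, AtrxdE2+TMPyP4 minus AtrxdE2, had a median of 0.015, the same as over all genes, with 33 above 0. The SD across genes of that difference was 0.31 for the adhesion genes and 0.26 for all genes.

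In AtrxdE2+TMPyP4 over wild type, Cdh12 was the 1 adhesion gene at least 1.5-fold higher and Cdh13 the 1 at least 1.5-fold lower, where 0.902% and 0.462% of all measured genes passed those limits. None reached 2-fold, which 0.161% of all genes did upwards and 0.0293% downwards. In AtrxdE2 over wild type, Chl1 was at least 1.5-fold higher and no adhesion gene was 1.5-fold lower, beside 0.44% higher and 0.66% lower of all genes. None reached 2-fold there either, as 0.022% of all genes did upwards and 0.00734% downwards. For AtrxdE2+TMPyP4 minus AtrxdE2, Cdh12 was at least 1.5-fold higher and Chl1, Nrxn2 and Cdh13 were at least 1.5-fold lower, beside 2.1% higher and 1.14% lower of all genes. Chl1 alone passed 2-fold, downwards, in a comparison in which 0.213% of all genes did so upwards and 0.103% downwards. A count of 1 among 62 genes cannot be set apart from these background shares. These counts are from ratios with an offset that draws dim probes towards 0. Scaling each array by its median log2 ratio, in place of a curve fitted along the signal range, put the median of all genes at 0.179 in AtrxdE2+TMPyP4 over wild type, and there 8 adhesion genes were at least 1.5-fold higher and 0 lower, beside 15.3% higher and 0.088% lower of all genes. With the same scaling 5 were higher and 0 lower in AtrxdE2 over wild type, beside 2.74% and 0.154% of all genes. For AtrxdE2+TMPyP4 minus AtrxdE2 that scaling again gave 1 higher and 3 lower, beside 7.53% and 0.712% of all genes.

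**Figure D1:**
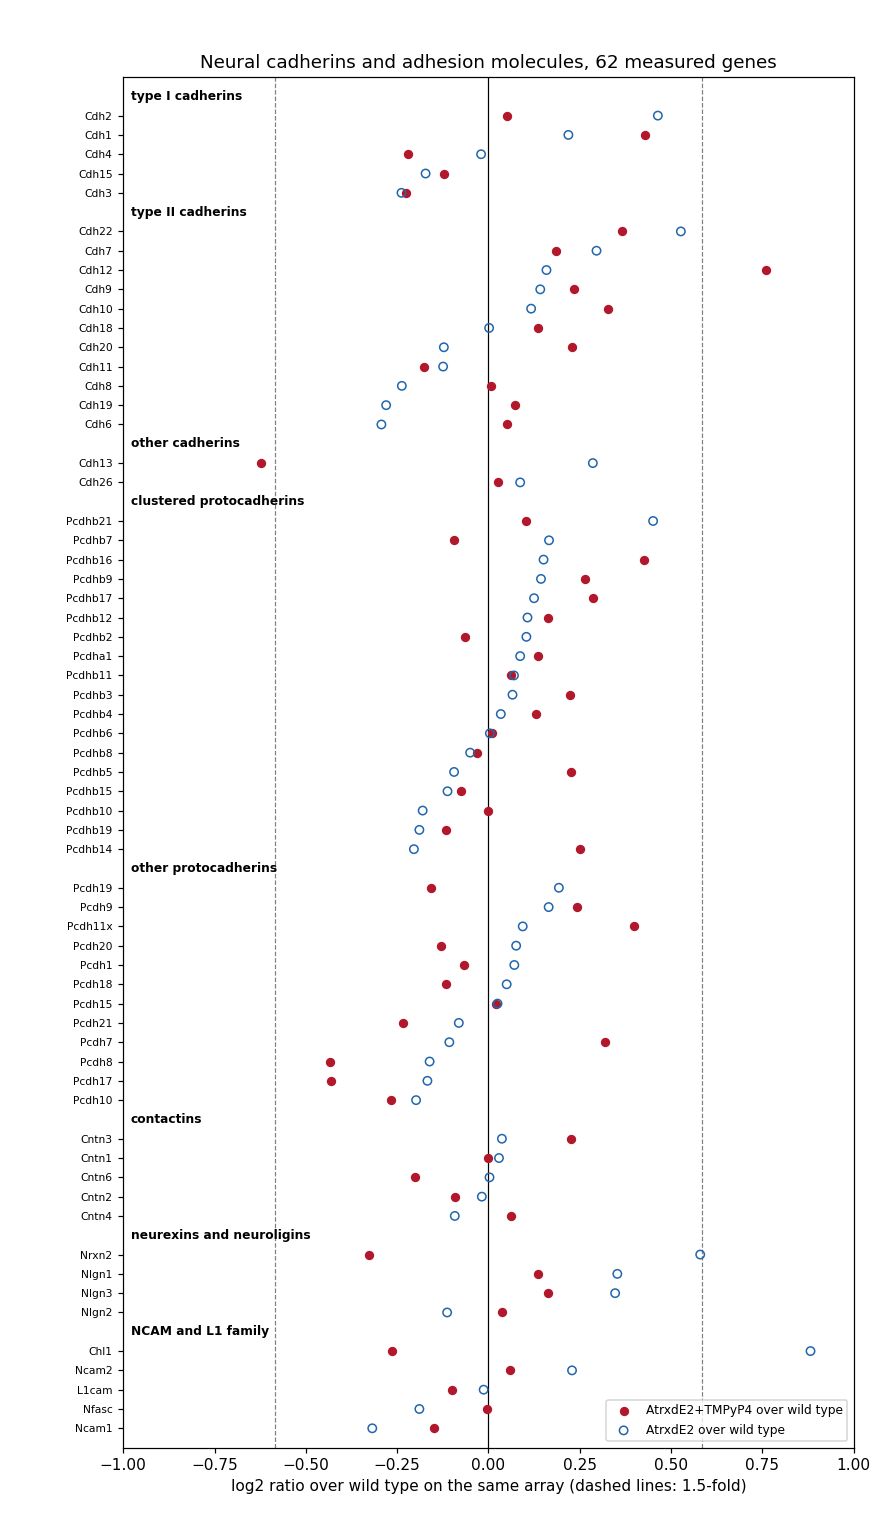
Log2 ratio over wild type of each of the 62 measured adhesion genes, by structural family, in AtrxdE2+TMPyP4 and in AtrxdE2 (1 array each, so no error bars); the log2 axis is marked at 0 and at 1.5-fold (0.585). Chl1 at 0.88 and Nrxn2 at 0.58 lie at the upper edge in AtrxdE2, Cdh12 at 0.76 and Cdh13 at -0.62 lie outermost in AtrxdE2+TMPyP4, and most other genes lie near 0.

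Chl1, the close homologue of L1 and a receptor on growing axons and migrating neurons, had the largest difference between the arrays in these ratios. The direct Cy3 difference was larger for Nrxn2, and the difference in the authors' deposited table was larger for the dim Pcdhb14, at 1.63. The Chl1 signal above the blank spots was 937 in AtrxdE2+TMPyP4 against 499.8 in wild type on the same array, and 1579 in AtrxdE2 against 525 in wild type on the other. Signals above the blank spots, here and below, are not normalized, and the Cy3 channels had the higher medians. These were 79.0 in AtrxdE2+TMPyP4 against 36.0 in wild type, and 64.6 in AtrxdE2 against 42.2 in wild type. Signals are therefore not comparable across the dyes, and a mutant signal above that of wild type can go with a log2 ratio below 0. Of the Cy3 signals of Chl1 that of AtrxdE2 was the brighter, while the wild type signals lay close together. After normalization the log2 ratio was -0.26 in AtrxdE2+TMPyP4 over wild type and 0.88 in AtrxdE2 over wild type, which is 1.84-fold higher and the 8th highest of the 13630 genes. The treated-minus-untreated difference was -1.15, or 2.21-fold lower, the 12th lowest of all genes. Among the 500 genes nearest to Chl1 in signal the SD of that difference was 0.38. The authors' deposited table gave -0.26 for AtrxdE2+TMPyP4, 0.94 for AtrxdE2 and -1.20 for their difference. The higher ratio in AtrxdE2 and the lower value with TMPyP4 relative to AtrxdE2 kept their direction under every setting that could change them. The ratio of AtrxdE2+TMPyP4 over wild type did not: with median scaling it was 0.25, where the median of all genes was 0.179. In pooled tissue, fewer cells of a type and less RNA per cell cannot be told apart, for Chl1 and for all genes below.

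The promoter windows of Chl1 and of its family member L1cam are shown because TMPyP4 binds G-quadruplexes, which form in strands with several runs of G. They run from 250 bases before to 50 bases after the transcription start, are taken from RefSeq (GRCm38.p6), and are written 5′ to 3′ along the gene with every run of at least 3 G or 3 C in capitals. Chl1 lies on the plus strand at chr6:103510626-103510925, and L1cam on the minus strand at chrX:73880741-73881040.
Chl1: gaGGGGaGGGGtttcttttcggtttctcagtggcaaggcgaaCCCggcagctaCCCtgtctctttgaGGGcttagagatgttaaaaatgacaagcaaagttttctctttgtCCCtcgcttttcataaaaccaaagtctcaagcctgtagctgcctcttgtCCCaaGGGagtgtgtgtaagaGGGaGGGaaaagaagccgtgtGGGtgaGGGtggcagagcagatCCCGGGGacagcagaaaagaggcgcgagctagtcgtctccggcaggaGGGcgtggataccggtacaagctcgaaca
L1cam: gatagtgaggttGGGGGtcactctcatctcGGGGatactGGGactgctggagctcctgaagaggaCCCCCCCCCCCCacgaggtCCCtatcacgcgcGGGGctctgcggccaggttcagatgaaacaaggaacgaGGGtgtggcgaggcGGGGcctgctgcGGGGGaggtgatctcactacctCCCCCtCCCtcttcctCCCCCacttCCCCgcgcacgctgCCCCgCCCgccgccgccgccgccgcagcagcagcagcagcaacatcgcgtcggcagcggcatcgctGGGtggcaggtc
The Chl1 window holds 10 runs of G and 5 runs of C, with a GC content of 53.7%. The L1cam window holds 8 runs of G and 8 of C, with a GC content of 69.3%. A quadruplex-forming motif was taken as 4 runs of GGG, with 1 to 7 bases of any kind (N) between neighbouring runs, searched on both strands without overlaps. By this definition the Chl1 window has 0 motifs, and that of L1cam has 2, both on the strand opposite to the printed one, at bases 66 to 87 and 184 to 212 of the window. The motif at bases 66 to 87 splits a long unbroken stretch of C into several runs with C between them. The count of 8 runs of C takes that stretch as 1.

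Of all 32851 promoter windows of the reference table, 18.6% held the motif, and of the 44 windows of 34 adhesion genes, 18 held it, or 40.9%. Only 32 of the 62 measured adhesion genes had a window, and Nrxn2 and Cdh13 were not among them. Among measured adhesion genes with a window, the 14 whose promoter held the motif had a median log2 ratio of 0.022 in AtrxdE2+TMPyP4 over wild type, against 0.024 in the 18 without it. In AtrxdE2 over wild type these medians were -0.016 with the motif and 0.033 without it. For AtrxdE2+TMPyP4 minus AtrxdE2 they were -0.012 with the motif and -0.046 without it. Most windows hold no such motif, the windows are a limited stretch, and a match in letters is a description of sequence, not a measured structure or site of drug binding.

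The other genes of the L1 and NCAM families had smaller ratios. L1cam, the founding L1 molecule of axons, gave signals of 205 in AtrxdE2+TMPyP4 against 105 in wild type, and 326 in AtrxdE2 against 212 in wild type. Both signals were brighter on the AtrxdE2 array. After normalization its log2 ratios were similar on both arrays, at -0.099 in AtrxdE2+TMPyP4 and -0.013 in AtrxdE2. The wild type channels themselves differed by -0.66 for L1cam between the arrays, AtrxdE2+TMPyP4 array minus AtrxdE2 array, and the Cy3 channels by -0.74, so that L1cam passed 1.5-fold in the direct Cy3 comparison and not in the ratios within each array. In that Cy3 comparison 5.69% of all genes passed 1.5-fold downwards. Against the wild type channel of the other array, the L1cam ratio was -0.76 in AtrxdE2+TMPyP4 and 0.65 in AtrxdE2. There 4.59% of all genes passed 1.5-fold downwards in AtrxdE2+TMPyP4, and 5.28% upwards in AtrxdE2. Nfasc, neurofascin, which anchors the axon initial segment and node of Ranvier, had log2 ratios of -0.004 in AtrxdE2+TMPyP4 and -0.19 in AtrxdE2, and its wild type channels also differed, by -0.55 on the log2 scale. Against the wild type channel of the other array its AtrxdE2 ratio was 0.37, and the difference AtrxdE2+TMPyP4 minus AtrxdE2 was 0.19 from the ratios and -0.37 between the Cy3 channels, so neither has a settled direction. Ncam1, the neural cell adhesion molecule that carries polysialic acid, had log2 ratios of -0.15 in AtrxdE2+TMPyP4 and -0.32 in AtrxdE2. The AtrxdE2 ratio was -0.069 under median scaling and -0.025 against the wild type channel of the other array. Ncam2, its paralogue best known from olfactory axons, had 0.059 in AtrxdE2+TMPyP4 and 0.23 in AtrxdE2. Over these 5 genes the median was -0.099 in AtrxdE2+TMPyP4 over wild type, with 4 of 5 below 0, but 0.18 with 4 of 5 above 0 under median scaling. In AtrxdE2 over wild type the median was -0.013, or 0.19 under median scaling. That scaling put the median of all genes at 0.179 in AtrxdE2+TMPyP4 over wild type, with 66.1% above 0. In AtrxdE2 over wild type it put the median of all genes at 0.066.

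Nrxn2, the presynaptic neurexin 2, followed the pattern of Chl1. Its signal was 1678 in AtrxdE2+TMPyP4 against 919 in wild type, and 3603 in AtrxdE2 against 1553 in wild type. Here both channels were brighter on the AtrxdE2 array, the AtrxdE2 channel more so. The log2 ratio was -0.33 in AtrxdE2+TMPyP4 over wild type and 0.58 in AtrxdE2 over wild type, just under the 1.5-fold limit of 0.585 and the 61st highest of all genes. It passed that limit with plain background subtraction, at 0.59, with median scaling, at 0.83, and against the wild type channel of the other array, at 1.104. In these settings 3.88%, 2.74% and 5.28% of all genes passed it upwards. AtrxdE2+TMPyP4 minus AtrxdE2 was -0.91, or 1.88-fold lower, the 21st lowest. The authors' deposited table gave -0.30 for AtrxdE2+TMPyP4 and 0.56 for AtrxdE2. The wild type channels differed by -0.52 between arrays and the Cy3 channels by -1.43, so the direct Cy3 comparison gave a larger difference than the ratios, and median scaling a smaller one, -0.60. As for Chl1, the ratio of AtrxdE2+TMPyP4 over wild type changed sign with median scaling, to 0.24.

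The neuroligins, postsynaptic partners of neurexins, stayed within 1.5-fold in the offset-corrected ratios fitted with loess. Under median scaling Nlgn1 passed it on both arrays, at 0.65 in AtrxdE2+TMPyP4 and 0.61 in AtrxdE2. In that setting 15.3% and 2.74% of all genes passed it upwards. With plain subtraction Nlgn3 passed it in AtrxdE2 (0.62), as did 3.88% of all genes upwards. Nlgn2 passed it with plain subtraction for AtrxdE2+TMPyP4 minus AtrxdE2 (0.71), as did 9.93% of all genes upwards. That Nlgn2 difference was 0.15 with the offset and loess, -0.060 under median scaling and -0.070 between the Cy3 channels, so it has no settled direction. Nlgn1, found at excitatory synapses, gave signals of 1126 in AtrxdE2+TMPyP4 against 444.5 in wild type, and 853 in AtrxdE2 against 415 in wild type. Its log2 ratios were 0.14 in AtrxdE2+TMPyP4 and 0.35 in AtrxdE2. Nlgn3 had similar ratios, 0.16 in AtrxdE2+TMPyP4 and 0.35 in AtrxdE2. Nlgn2, the neuroligin of inhibitory synapses, was dim, with a signal of 16.2 in AtrxdE2+TMPyP4 against 5.56 in wild type and 20.2 in AtrxdE2 against 17.5 in wild type. Its log2 ratios were 0.038 in AtrxdE2+TMPyP4 and -0.11 in AtrxdE2, where the authors' deposited table, with no offset, gave 0.37 for AtrxdE2+TMPyP4 and -0.44 for AtrxdE2. Of the 4 neurexin and neuroligin genes, 3 were above 0 on each array. Their median was 0.087 in AtrxdE2+TMPyP4 and 0.35 in AtrxdE2, and the median difference between them was -0.20.

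**Figure D2:**
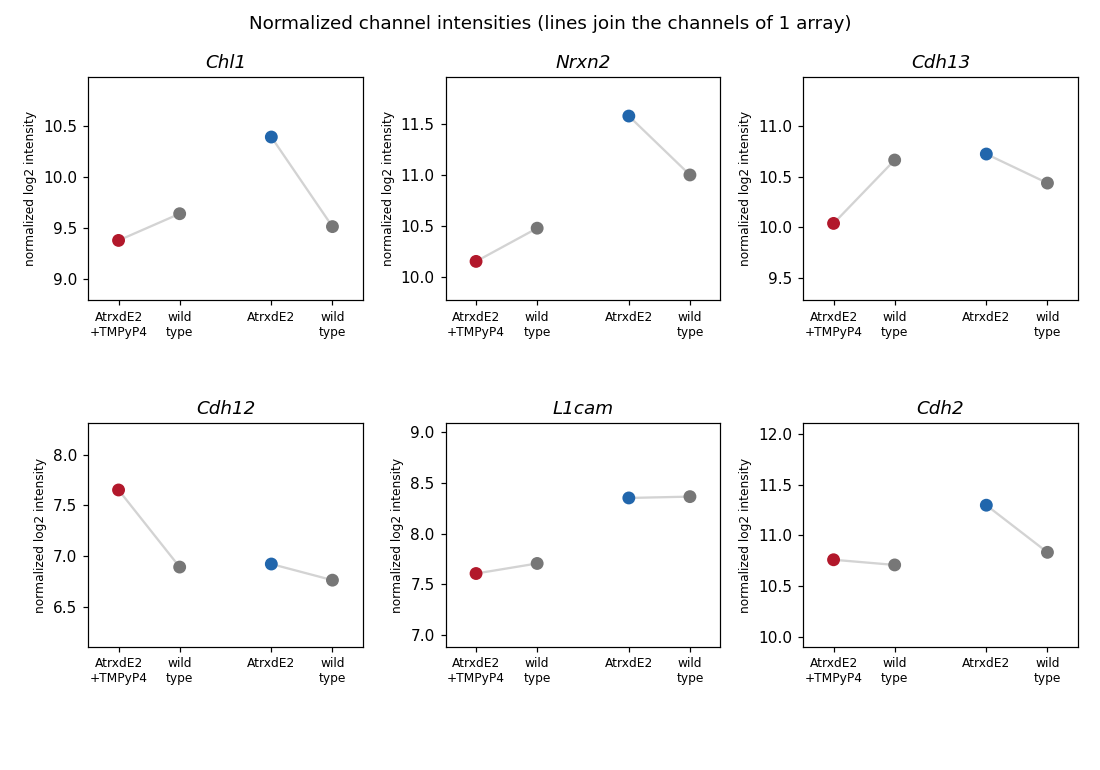
Normalized log2 signal in the 4 channels, AtrxdE2+TMPyP4 and the wild type on its array, then AtrxdE2 and the wild type on its array, for Chl1, Nrxn2, Cdh13, Cdh12, L1cam and Cdh2 (1 pool per point, so no error bars, with a line joining the channels of 1 array). Chl1 and Cdh13 have wild type channels within 0.23 of each other, Nrxn2 and L1cam have wild type channels 0.52 and 0.66 lower on the AtrxdE2+TMPyP4 array, and Cdh12 has its highest point in AtrxdE2+TMPyP4.

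Cdh13, T-cadherin, is held in the membrane by a lipid anchor and has no cytoplasmic tail. Its signal was 1545 in AtrxdE2+TMPyP4 against 1049 in wild type, and 1999 in AtrxdE2 against 1046 in wild type. The wild type signals were nearly equal and the mutant signals were not. The log2 ratio was -0.62 in AtrxdE2+TMPyP4 over wild type, or 1.54-fold lower and the 53rd lowest of all genes, and 0.29 in AtrxdE2 over wild type. AtrxdE2+TMPyP4 minus AtrxdE2 was -0.91, or 1.88-fold lower, the 20th lowest. The lower value with TMPyP4 relative to AtrxdE2 was at least 1.5-fold under every setting that could change it. The ratio of AtrxdE2+TMPyP4 over wild type shrank to -0.058 with median scaling and to -0.40 against the wild type channel of the other array. Cdh26 was the other measured gene outside the type I and II cadherins, with log2 ratios of 0.026 in AtrxdE2+TMPyP4 and 0.087 in AtrxdE2.

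Cdh12, a type II cadherin of brain also called N-cadherin 2, gave the highest adhesion ratio with TMPyP4. Its signal was 206 in AtrxdE2+TMPyP4 against 39.9 in wild type, and 76.3 in AtrxdE2 against 40.4 in wild type. Of the Cy3 signals that of AtrxdE2+TMPyP4 was the brighter, and the wild type channels were dim and alike. The log2 ratio was 0.76 in AtrxdE2+TMPyP4 over wild type, or 1.69-fold higher and the 47th highest of all genes, against 0.16 in AtrxdE2 over wild type, and the difference was 0.60. The authors' deposited table gave 1.20 for AtrxdE2+TMPyP4 and 0.27 for AtrxdE2. In the 500 genes nearest to it in signal, the SD of the AtrxdE2+TMPyP4 ratio was 0.18. Its promoter window from RefSeq (GRCm38.p6), on the plus strand at chr15:21111202-21111501, is shown for comparison with that of Chl1, with runs of at least 3 G or 3 C in capitals.
Cdh12: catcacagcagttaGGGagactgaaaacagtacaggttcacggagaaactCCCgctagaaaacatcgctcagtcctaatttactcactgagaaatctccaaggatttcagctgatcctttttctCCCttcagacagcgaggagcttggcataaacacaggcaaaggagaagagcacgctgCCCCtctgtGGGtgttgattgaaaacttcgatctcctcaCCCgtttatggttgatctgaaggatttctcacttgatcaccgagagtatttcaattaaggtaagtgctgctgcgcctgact
It holds 2 runs of G, 4 runs of C and 0 of the 4-run motifs, at a GC content of 46.7%.

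The 11 type II cadherins, whose members mark particular neuron groups and their connections, were all measured. With TMPyP4, 10 of the 11 lay above 0 relative to wild type, with a median log2 ratio of 0.19, where 52.8% of all genes lay above 0. Under the settings that kept all 11 genes, 8 to 10 were above 0, and of the 5 with probes above the median signal, 4 were. Without TMPyP4, 6 of 11 lay above 0 in AtrxdE2 over wild type, with a median of 0.002. For AtrxdE2+TMPyP4 minus AtrxdE2 the median was 0.21, with 8 of 11 above 0, where 52.7% of all genes were. After Cdh12 came Cdh22, with 0.36 in AtrxdE2+TMPyP4 and 0.53 in AtrxdE2, the highest AtrxdE2 ratio after those of Chl1 and Nrxn2. Its signal was 763 in AtrxdE2+TMPyP4 against 254 in wild type, and 707 in AtrxdE2 against 299 in wild type. In AtrxdE2 Cdh22 passed 1.5-fold with plain subtraction (0.595), with median scaling (0.77) and in the authors' deposited table (0.59). In these settings 3.88%, 2.74% and 4.11% of all genes did so upwards. Under median scaling it also passed with TMPyP4, as did 15.3% of all genes. The mesenchymal Cdh11 was the 1 type II gene below 0 with TMPyP4, at -0.18, and had -0.12 in AtrxdE2, and under median scaling its ratios were 0.32 in AtrxdE2+TMPyP4 and 0.12 in AtrxdE2. Cdh6 was lowest in AtrxdE2, at -0.29, against 0.051 in AtrxdE2+TMPyP4. The authors' deposited table gave -0.70 for Cdh6 and -1.06 for Cdh19 in AtrxdE2, which are dim there and drawn towards 0 by the offset, and 0.03 and 0.19 for them in AtrxdE2+TMPyP4.

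The 5 type I cadherins split in direction. Cdh2, N-cadherin, the main classical cadherin of neurons and synapses, had a log2 ratio of 0.051 in AtrxdE2+TMPyP4 and 0.46 in AtrxdE2, with a difference of -0.41 that was -0.089 under median scaling. In AtrxdE2 it passed 1.5-fold under median scaling, at 0.72, and against the wild type channel of the other array, at 0.59. In these settings 2.74% and 5.28% of all genes did so upwards. Under median scaling Cdh2 also passed with TMPyP4, as did 15.3% of all genes. Cdh1, E-cadherin, the epithelial form, had 0.43 in AtrxdE2+TMPyP4 and 0.22 in AtrxdE2. It was dim, with signals of 70.3 in AtrxdE2+TMPyP4 against 13.6 in wild type, and 38.8 in AtrxdE2 against 14.9 in wild type. The authors' deposited table gave larger values for Cdh1, 1.20 in AtrxdE2+TMPyP4 and 0.72 in AtrxdE2. Cdh3, P-cadherin, had -0.23 in AtrxdE2+TMPyP4 and -0.24 in AtrxdE2, with 0.33 and 0.025 for these under median scaling. The median over the family was -0.12 in AtrxdE2+TMPyP4 and -0.020 in AtrxdE2, and both were above 0, at 0.33 and 0.12, under median scaling. The medians of all genes in that setting were 0.179 in AtrxdE2+TMPyP4 and 0.066 in AtrxdE2.

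The clustered protocadherins are represented by 22 genes, of which 18 were measured: Pcdha1 and 17 of 20 beta genes. None reached 1.5-fold in any comparison with the offset and loess. In the authors' deposited table, which has no offset, 2 passed 1.5-fold upwards and 0 downwards in AtrxdE2+TMPyP4 over wild type, beside 5.22% and 3.06% of all genes. There 2 passed upwards and 1 downwards in AtrxdE2 over wild type, beside 4.11% and 5.17% of all genes. For AtrxdE2+TMPyP4 minus AtrxdE2, 2 passed upwards and 2 downwards, beside 10.2% and 6.65% of all genes. Under median scaling Pcdhb16 passed upwards with TMPyP4, as did 15.3% of all genes. In AtrxdE2+TMPyP4 over wild type their log2 ratios ran from -0.12 to 0.43 with a median of 0.12 and 12 of 18 above 0, and in AtrxdE2 over wild type from -0.20 to 0.45 with a median of 0.068 and 12 of 18 above 0. Under median scaling the medians were 0.13 in AtrxdE2+TMPyP4 and 0.031 in AtrxdE2, below those of all genes in the same setting, 0.179 and 0.066. AtrxdE2+TMPyP4 minus AtrxdE2 had a median of 0.065, with 14 of 18 above 0, where 52.7% of all genes were. Under median scaling 11 of 18 were above 0, beside 57.7% of all genes. Between the Cy3 channels 11 of 18 were above 0, beside 53.4% of all genes. The highest with TMPyP4 was Pcdhb16, at 0.43 against 0.15 in AtrxdE2, and the lowest Pcdhb19, at -0.12 against -0.19 in AtrxdE2. In AtrxdE2 the highest was Pcdhb21, at 0.45 against 0.10 in AtrxdE2+TMPyP4, and the lowest Pcdhb14, at -0.20 against 0.25 in AtrxdE2+TMPyP4.

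Pcdhb14 and Pcdhb21 thus differed between the arrays in opposite directions, by 0.45 and by -0.35. Pcdhb14 had a signal of 56.2 in AtrxdE2+TMPyP4 against 15.3 in wild type, and 13.5 in AtrxdE2 against 16.5 in wild type. Pcdhb21 had a signal of 116 in AtrxdE2+TMPyP4 against 48.3 in wild type, and 103 in AtrxdE2 against 37.4 in wild type. The probe of Pcdhb14 was dim in 3 of its 4 channels, and the authors' deposited table, which has no offset, gave it 0.70 in AtrxdE2+TMPyP4 and -0.93 in AtrxdE2. Along the order of the beta genes, positive and negative ratios were interspersed. The beta genes are close copies of one another, and the probe sequences were not used here, so signals of single beta genes are uncertain where a probe could bind several of them.

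**Figure D3:**
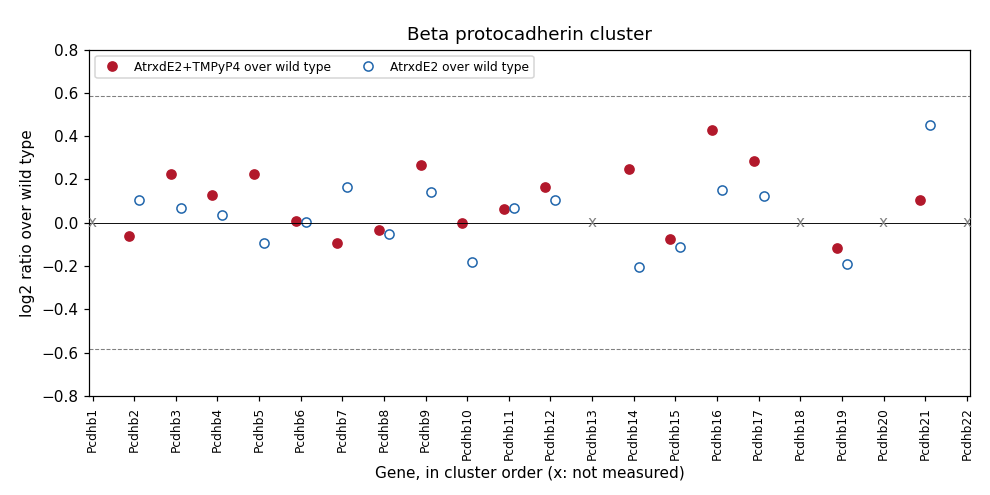
Log2 ratio over wild type of each beta protocadherin in its order along the cluster, in AtrxdE2+TMPyP4 and in AtrxdE2 (1 array each, no error bars); crosses mark genes that were not above background in all channels or have no named probe, and dashed lines mark 1.5-fold. The 17 measured genes lie between -0.20 and 0.45, inside the 1.5-fold lines at 0.585 on either side of 0.

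The other protocadherins, encoded outside the clusters, numbered 13, and 12 were measured. Their median was -0.12 in AtrxdE2+TMPyP4 over wild type with 8 of 12 below 0, but 0.084 with 8 of 12 above 0 under median scaling. That scaling put the median of all genes at 0.179, with 66.1% above 0, so the family stayed below it. In AtrxdE2 over wild type the family median was 0.037, with 7 of 12 above 0. AtrxdE2+TMPyP4 minus AtrxdE2 had a median of -0.15 with 9 of 12 below 0, where 52.7% of all genes were above 0. Pcdh8, also known as arcadlin and induced by neuronal activity, had -0.43 in AtrxdE2+TMPyP4 and -0.16 in AtrxdE2, and -0.035 in AtrxdE2+TMPyP4 under median scaling. The dim Pcdh21, now named Cdhr1 and known from photoreceptors, had -0.23 in AtrxdE2+TMPyP4 and -0.081 in AtrxdE2. The authors' deposited table gave it -1.20 in AtrxdE2+TMPyP4, the lowest of the family there, and -0.33 in AtrxdE2. Pcdh11x, an X-linked protocadherin, was the highest with TMPyP4, at 0.40 against 0.094 in AtrxdE2. Pcdh7 had 0.32 in AtrxdE2+TMPyP4 and -0.11 in AtrxdE2, the largest upward difference of this family, 0.43. Pcdh19, whose loss causes an epilepsy linked to the X chromosome in humans, had -0.16 in AtrxdE2+TMPyP4 and 0.19 in AtrxdE2, its largest downward one, -0.35. Pcdh10 was the lowest in AtrxdE2, at -0.20, against -0.27 in AtrxdE2+TMPyP4.

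Pcdh9 was the 1 adhesion gene with more than 1 probe, and its 2 probes disagreed. The dimmer probe had log2 ratios of 0.24 in AtrxdE2+TMPyP4 and -0.34 in AtrxdE2, and the brighter probe 0.25 in AtrxdE2+TMPyP4 and 0.67 in AtrxdE2. They matched with TMPyP4 and lay on either side of 0 without it, so the difference was 0.58 by one probe and -0.42 by the other. No direction is given for Pcdh9 in AtrxdE2. The single probes of the other 70 genes offer no such comparison.

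The contactins, lipid-anchored partners of the L1 family on axons, lay close to 0 in the offset-corrected ratios fitted with loess. Under median scaling Cntn1 passed 1.5-fold upwards in AtrxdE2+TMPyP4 over wild type, as did 15.3% of all genes. The authors' deposited table gave 0.46 for Cntn3 and -0.36 for Cntn6 in AtrxdE2+TMPyP4. Of 6 genes 5 were measured. With the offset and loess their log2 ratios lay between -0.20 and 0.23 in AtrxdE2+TMPyP4 over wild type and between -0.092 and 0.037 in AtrxdE2 over wild type. Cntn3 was the highest in both, at 0.23 in AtrxdE2+TMPyP4 and 0.037 in AtrxdE2. Cntn6 was the lowest with TMPyP4, at -0.20 against 0.003 in AtrxdE2, and Cntn4 the lowest in AtrxdE2, at -0.092 against 0.063 in AtrxdE2+TMPyP4.

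The 9 adhesion genes not above background in all 4 channels were Cdh16, Cdh17, Cdh23, Cntn5, Pcdh12, Pcdhb1, Pcdhb13, Pcdhb18 and Pcdhgc5. Cdh17 and Pcdhgc5 were not well above background in either channel of either array. Where 1 channel alone was above background, the brighter over the dimmer was 1.05-fold for Pcdhb13, higher in AtrxdE2 than in wild type. This is its measured ratio, with the wild type channel below background, and not a lower bound. For Pcdh12 it was at least 1.04-fold, lower in AtrxdE2+TMPyP4 than in wild type, and no other bound was larger.

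The wild type channels give a measure of how far 2 arrays differed where the label is the same. Over all genes the difference between them, AtrxdE2+TMPyP4 array minus AtrxdE2 array, had an SD of 0.29 on the log2 scale, and 5.42% of genes differed by at least 1.5-fold. Over the adhesion genes the SD was 0.21 and L1cam was the 1 gene past 1.5-fold. The difference was 0.13 for Chl1, 0.23 for Cdh13 and 0.13 for Cdh12, against Cy3 differences, AtrxdE2+TMPyP4 minus AtrxdE2, of -1.02 for Chl1, -0.68 for Cdh13 and 0.73 for Cdh12. Directly between the Cy3 channels, 4 adhesion genes were at least 1.5-fold lower and 1 higher, or 8.06% of the 62, where 11.6% of all genes passed 1.5-fold in either direction.

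**Figure D4:**
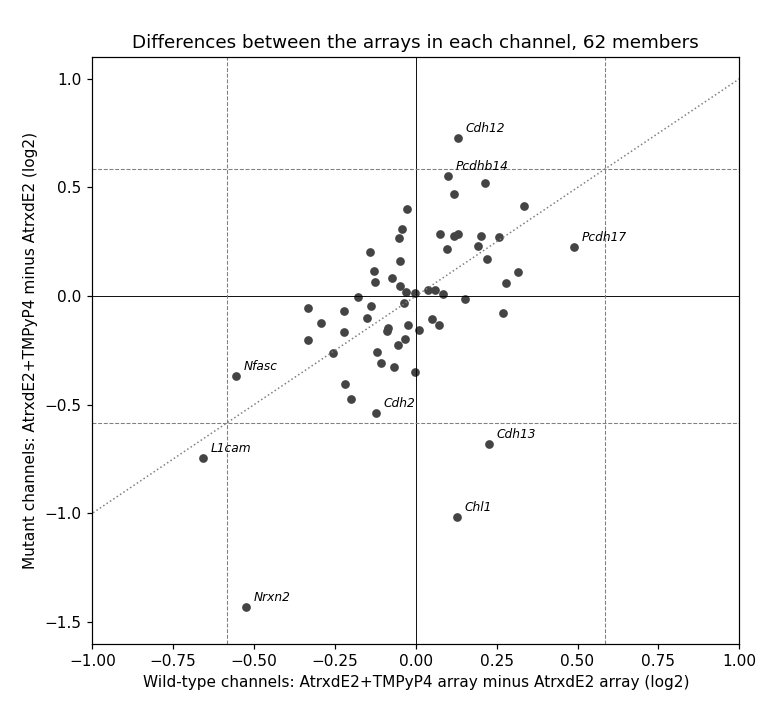
Difference between arrays, AtrxdE2+TMPyP4 array minus AtrxdE2 array, of the Cy3 (mutant) channels against that of the wild type channels, in log2 units, with 1 point for each of the 62 measured adhesion genes, dashed lines at 1.5-fold and a dotted line of equal differences. Nrxn2 and L1cam lie low on both axes (wild type -0.52 and -0.66, Cy3 -1.43 and -0.74), whereas Chl1, Cdh13 and Cdh12 lie within 0.23 of 0 for wild type and away from 0 for Cy3.

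Genes that work with these molecules were followed in 6 lists. Of 11 genes of the cadherin-catenin complex, 10 were measured, none at least 1.5-fold apart from wild type on either array. For AtrxdE2+TMPyP4 minus AtrxdE2 their median was -0.22, with 8 of 10 below 0, from Ctnnd2, delta-catenin, at -0.56 to Ctnna2, the neuronal alpha-catenin, at 0.67, the 1 gene at least 1.5-fold higher. Among 21 measured neurexin and neuroligin partners of 26, the median was 0.048 in AtrxdE2+TMPyP4, 0.012 in AtrxdE2 and 0.013 for the difference, and Cbln1, a secreted bridge between neurexins and glutamate receptors, was the 1 gene at least 1.5-fold lower, at -0.66 in AtrxdE2+TMPyP4. Among 11 measured contactin and L1 partners, the median was -0.053 in AtrxdE2+TMPyP4 and -0.13 in AtrxdE2. Ank2, an ankyrin that binds the tails of L1 molecules, was the 1 of these at least 1.5-fold lower in AtrxdE2+TMPyP4 minus AtrxdE2, at -0.67, and had 0.47 in AtrxdE2 over wild type. The 8 NCAM partners had a median of -0.15 in AtrxdE2+TMPyP4 and 0.047 in AtrxdE2, with Prnp, the prion protein, at least 1.5-fold lower in AtrxdE2+TMPyP4, at -0.59. None of the 11 regulators of protocadherin promoter choice, such as Ctcf and cohesin subunits, passed 1.5-fold, and their median was 0.017 in AtrxdE2+TMPyP4 and 0.084 in AtrxdE2. Of the sheddases that cut adhesion molecules, 4 were measured and none passed 1.5-fold, with Adam10 at 0.41 in AtrxdE2 and -0.45 for AtrxdE2+TMPyP4 minus AtrxdE2.

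Other facts of these libraries bear on the values above. Atrx itself had a log2 ratio of -0.36 in AtrxdE2+TMPyP4 and -0.68 in AtrxdE2, and where its probe lies relative to the altered exon is not known here, so this does not check the allele. Signals summed over markers below are not normalized, and the Cy3 channels were brighter throughout (median signal 79.0 in AtrxdE2+TMPyP4 against 36.0 in wild type, and 64.6 in AtrxdE2 against 42.2 in wild type), so that the sums are not comparable across the dyes. Of all measured genes, 0.902% passed 1.5-fold upwards and 0.462% downwards in AtrxdE2+TMPyP4 over wild type, with 52.8% above 0. In AtrxdE2 over wild type 0.44% passed upwards and 0.66% downwards, with 49.3% above 0. Of 12 neuron markers 11 were measured. Relative to wild type, 2 passed 1.5-fold upwards and 0 downwards with 6 below 0 in AtrxdE2+TMPyP4, and 0 upwards and 2 downwards with 8 below 0 in AtrxdE2. Their summed signal was 113693 in AtrxdE2+TMPyP4 against 50116 in wild type, and 75989 in AtrxdE2 against 59109 in wild type. Choroid plexus markers differed most: 8 of 8 measured were at least 1.5-fold higher in AtrxdE2+TMPyP4 over wild type and 1 of 8 in AtrxdE2 over wild type, with a summed signal of 62455 in AtrxdE2+TMPyP4 against 298 in wild type, and 535 in AtrxdE2 against 151 in wild type, while Cldn2, Aqp1 and F5 were not above background in all channels. Of 12 meningeal and fibroblast markers, 8 were at least 1.5-fold higher in AtrxdE2+TMPyP4 and 5 in AtrxdE2, with sums of 4109 in AtrxdE2+TMPyP4 against 957 in wild type, and 3498 in AtrxdE2 against 1318 in wild type. Of 10 oligodendrocyte markers, 4 were at least 1.5-fold lower in AtrxdE2+TMPyP4 and 2 in AtrxdE2, and 9 of 10 were below 0 in AtrxdE2+TMPyP4 and 10 of 10 in AtrxdE2, with sums of 19421 in AtrxdE2+TMPyP4 against 12715 in wild type, and 11424 in AtrxdE2 against 12540 in wild type. Of 8 measured striatal markers, 3 were at least 1.5-fold lower in AtrxdE2+TMPyP4 and 2 in AtrxdE2. Among the measured endothelial (10), mural (8), astrocyte (9), microglial (10) and thalamic (7) markers, 1 mural marker was at least 1.5-fold higher and 1 thalamic marker lower in AtrxdE2+TMPyP4, and 1 microglial marker was lower in AtrxdE2. The part of these cell types in the ratios of Chl1, Nrxn2, Cdh13, Cdh12 and the other adhesion genes was not tested.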

How the data were processed

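Each array was a 2-colour array. The deposited scanner files give, per the file headers, the intensity, merged from 3 scanner gains, of each spot in the Cy5 (wild type) and Cy3 (mutant) channels. The authors' deposited value table holds log2 ratios of mutant over wild type, per the labels. Set against the scanner values, 99.99% of its entries on each array matched, within 0.01, the log2 ratio of blank-subtracted intensities minus a constant of 0.652 for AtrxdE2 and 1.171 for AtrxdE2+TMPyP4. How that constant was chosen is not stated.

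From the intensities, background was corrected with normexp (offset 50) on the median spot signal with the mean of the blank spots (trimmed by a share of 0.05) as background, and log2 ratios were fitted with loess within each array, control spots at weight 0 (limma 3.58.1, R 4.3.3). A probe was measured if above the blank mean plus 2 SD in all 4 channels, as 18664 of 23473 were. The probes of a gene were averaged, and 16631 probes had a gene symbol in the platform annotation. All 71 symbols matched a current one, with Pcdh21 now named Cdhr1. Per-channel values came from Aquantile scaling after loess. The offset draws ratios of dim probes towards 0. Median signals above blank were 79.0 and 36.0 in AtrxdE2+TMPyP4 and its wild type, and 64.6 and 42.2 in AtrxdE2 and its wild type. The number of arrays limits the precision.

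With 1 array per mutant pool no test was run. Limits of 1.5-fold and 2-fold were used for counts. Named genes were those past 1.5-fold, the highest and lowest of each family and comparison, those whose probes differed by over 0.5, and all L1, NCAM, neurexin and neuroligin genes; Cdh19 and Pcdh21 were named in addition, after their values were seen. The genes and lists were chosen with earlier results of these data known. The normalization was tested on simulated data. Alternatives were plain background subtraction, median scaling, 2 other filters on dim probes, the authors' table, the wild type channel of the other array and the direct difference of the Cy3 channels.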

Additional observations from a re-analysis of the deposited data

Results flagged for a closer look

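For 3 adhesion genes the ratio over wild type lay on opposite sides of 0 on the 2 arrays and differed between them by at least 1.5-fold, and in each case this difference was not tested, since there is 1 array per mutant pool. The share of all measured genes meeting both conditions was not counted, so whether 3 is an unusual number is not known. The limit on the difference alone was passed upwards by 2.1% of all measured genes and downwards by 1.14%. For Chl1 the treated-minus-untreated difference was -1.145 (-0.26 in AtrxdE2+TMPyP4 and 0.88 in AtrxdE2, each over wild type). For Nrxn2 it was -0.907 (-0.33 in AtrxdE2+TMPyP4 and 0.58 in AtrxdE2). For Cdh13 it was -0.910 (-0.62 in AtrxdE2+TMPyP4 and 0.29 in AtrxdE2). With median scaling the AtrxdE2+TMPyP4 ratio was 0.25 for Chl1 and 0.24 for Nrxn2, so that both arrays then lay above 0, and it was -0.058 for Cdh13. In that setting the median of all genes was 0.179.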

How the results depend on the processing

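The wild type channel of the other array and the direct Cy3 difference were chosen after seeing the data. The median over the adhesion genes of AtrxdE2+TMPyP4 minus AtrxdE2, 0.015, was -0.086 for probes above the median signal and -0.008 between the Cy3 channels, and that of AtrxdE2+TMPyP4 over wild type, 0.032, was -0.117 for probes above the median signal. For AtrxdE2+TMPyP4 minus AtrxdE2, adhesion genes past 1.5-fold upwards and downwards (1 and 3) numbered 9 and 7 with plain background subtraction (9.93% and 6.9% of all genes) and 8 and 7 in the authors' deposited table (10.2% and 6.65%), and 0 were higher among probes above the median signal, where Cdh12 is not found. In AtrxdE2 over wild type (1 higher and 0 lower) they numbered 6 and 3 with plain subtraction (3.88% and 5.18%), 5 and 3 in the authors' deposited table (4.11% and 5.17%), and 4 and 1 with the other wild type channel (5.28% and 4.25%), and 5 were higher with median scaling (2.74%). In AtrxdE2+TMPyP4 over wild type (1 and 1) they numbered 8 and 2 with plain subtraction (4.61% and 3.21%), 8 and 0 with median scaling (15.3% and 0.088%), 5 and 2 in the authors' deposited table (5.22% and 3.06%), and 2 and 3 with the other wild type channel (3.9% and 4.59%), and 0 were higher among probes above the median signal. Plain subtraction and the authors' table lack the offset that draws dim probes towards 0; the cause of the other shifts was not tested. For single named genes, a value was counted as moved if it shifted by over 0.289, the SD of the wild type channel differences. Plain subtraction moved 18 of 93 values, all 18 away from 0. Median scaling moved 16 of 93, the authors' values 16 of 93, the other wild type channel 14 of 62 and the Cy3 difference 7 of 31. Both other filters on dim probes moved none, but they only choose probes and could not move a measured gene with 1 probe. No value past 1.5-fold in the offset-corrected ratios fitted with loess changed sign. Values within that limit could change sign, as L1cam in AtrxdE2 did, from -0.013 to 0.65 with the other wild type channel. No paired analysis was possible because each mutant pool has 1 array, and for the same reason no array could be left out or used as a block.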
